A study of Mus musculus with 4 samples.

Results

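The genes described here encode the main inducible and constitutive heat shock proteins of the cytosol and of mitochondria. They are Hspa1a, Hspa1b, Hspa8, Hsp90aa1, Hsp90ab1, Hspb1, Hspd1, Hspe1, Hsph1 and Dnajb1. They were chosen by name, and every gene probe that carried one of these names, or a RefSeq accession of one of them, was taken. Of the 10 genes, 9 had a probe assigned to them by name or accession, with 17 probes among the 41174 gene probes of the array. Hspa1b had none of its own and was represented only by 2 probes that list it together with Hspa1a. All 17 probes passed the filter on dim probes, as did 30094 probes in all, which stood for 20510 genes.

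The first line was 4TO7 cells, a mouse mammary tumour line of BALB/cfC3H origin, that stably carried pMSCV-miR-23b/27b/24, a retroviral construct that expresses the microRNA cluster miR-23b/27b/24. The control line was 4TO7 cells that stably carried pMSCV-puro, the vector alone. No treatment or heat stress is named for either group, and both were cultured in the same medium with serum. Each group had 2 arrays, which the series calls transfection replicates, so the tests below measure the spread between these. Every array compared Cy5-labelled RNA of the cells with Universal Mouse Reference RNA in Cy3, which is pooled from 11 mouse cell lines. A log2 ratio of 0 therefore means the same signal in the cells as in the mix. The labels do not say whether a line was 1 clone, and the level of the mature microRNAs was not analysed here.

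Heat shock proteins are chaperones that bind unfolded proteins and help them fold, stay soluble or be degraded. Hsp70 proteins work in cycles of ATP binding and release that J-domain proteins start and Hsp110 proteins reset, and they hand clients on to Hsp90, while the mitochondrial chaperonin folds proteins inside a closed chamber. After stress, heat shock factor 1 binds inverted repeats of the unit NGAAN in the promoters of many of these genes and raises their transcription, whereas chaperones of the endoplasmic reticulum are induced through the unfolded protein response.

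The array was designed with probes of 60 bases, and the probes that separate or join members decide what was measured. The following 4 are probes of Hspa1a, Hspb1 and Dnajb1. Where a single probe stands for the gene, Hspa1a and Dnajb1 are measured by others, A_52_P82741 and A_51_P153486. Both Hspa1 sequences belong to probes that list Hspa1a and Hspa1b together. Sequences are as deposited with the arrays, 5′ to 3′.
Hspa1a and Hspa1b, A_52_P52803: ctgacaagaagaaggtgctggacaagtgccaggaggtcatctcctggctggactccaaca
Hspa1a and Hspa1b, A_52_P304902: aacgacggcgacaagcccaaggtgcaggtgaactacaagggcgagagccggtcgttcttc
Hspb1, A_52_P404533: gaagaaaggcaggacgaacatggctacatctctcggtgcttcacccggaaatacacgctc
Dnajb1, A_52_P171663: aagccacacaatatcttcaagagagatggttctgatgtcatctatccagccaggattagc

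The promoters were searched for letters that the choice of the genes did not use. The genes were picked as heat shock genes, so finding heat shock units before them is not independent evidence. RefSeq windows on GRCm38.p6 were matched for 7 of the 10 genes. A pair of inverted heat shock units, spelled GAANNTTC or TTCNNGAA (each reads the same on both strands), was searched in the 250 bases before each start. It was found for 6 of the 7 genes (85.7%), against 3932 of the 27025 genes with a window (14.5%). The exception was Dnajb1, where these letters were not in either of its windows. A run of 3 units, GAANNTTCNNGAA or TTCNNGAANNTTC, in which pairs overlap, was found for 2 of the 7 genes, Hspd1 and Hspe1, against 139 of 27025 genes (0.514%). These matches are not all separate cases, since Hspa1a and Hspa1b carry the same letters, and Hspd1 and Hspe1 share a stretch. The gene counts thus exceed the count of separate sites. The box CCAAT, or ATTGG on the other strand, was found for 4 of the 7 genes, against 37.5% of genes. A match describes letters and is not evidence of binding. The stretches below have the paired units in capitals.
Hspa1a, chr17:34972243-34972270, minus strand: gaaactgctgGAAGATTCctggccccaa
Hspa1b, chr17:34959325-34959352, minus strand: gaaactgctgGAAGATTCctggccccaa
Hspb1, chr5:135887792-135887839, plus strand: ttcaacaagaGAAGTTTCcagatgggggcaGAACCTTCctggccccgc
Hspd1, chr1:55088049-55088086, minus strand: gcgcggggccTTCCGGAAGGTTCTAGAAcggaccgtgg
Hspe1, chr1:55088049-55088086, plus strand: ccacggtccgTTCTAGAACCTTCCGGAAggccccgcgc
Hsph1, chr5:149636352-149636379, minus strand: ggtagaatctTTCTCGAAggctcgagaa

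Hspd1 and Hspe1 point away from each other and share this stretch of chromosome 1. It lies at positions -154 to -117 from the inner of 2 starts of Hspd1 and -99 to -62 from the start of Hspe1. RefSeq gives a second window for Hspd1, at chr1:55088244-55088493, before its outer start, in which the paired units were not found. Counted from the outer start, the stretch lies inside Hspd1, and the genes overlap by 96 bases. Hspa1a and Hspa1b, which encode nearly the same inducible Hsp70, carry the same stretch on chromosome 17. Their windows of 300 bases differ at 4 positions, 3 of them before the start. Counted from 1 at the 5′ end of the window, with the base of Hspa1a first, these are C44T, T47C, T249G and C276T. For the microRNAs of the construct, 2 mature sequences on GRCm38.p6 were found in the reference used here. They are shown because they are what the cells were made to express. Both lie on the plus strand of chromosome 13, miR-27b-3p at chr13:63300760-63300780 and miR-24-3p at chr13:63301251-63301272, and their seeds, bases 2 to 8, are in capitals. The third is miR-23b-3p, whose mature sequence was not found in the reference used here and is not shown.
mmu-miR-27b-3p: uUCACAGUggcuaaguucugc
mmu-miR-24-3p: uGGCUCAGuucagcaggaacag

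On the 4 arrays, between 69.9% and 71.7% of gene probes were well above background in Cy5 in miR-23b/27b/24 cells, and between 74.0% and 74.9% in vector cells. Across genes, which are not independent replicates, log2 ratios had a correlation of 0.952 for the miR-23b/27b/24 pair and of 0.887 for the vector pair, while pairs from different groups gave 0.629 to 0.725. The vector arrays thus stood further apart: 703 of 20510 genes (3.43%) differed between them by at least 1 in log2, against 118 genes (0.575%) between the miR-23b/27b/24 arrays. Of 6 epithelial marker genes, 6 were well above background on all 4 arrays. Their summed Cy5 signal was 108158 to 138588 in miR-23b/27b/24 cells and 240226 to 430794 in vector cells. Most of these sums came from Krt8 and Krt18, which were not called. The other 4 were called lower in miR-23b/27b/24 cells by limma over all genes, Krt7 by 22.5-fold, Krt19 by 16.3-fold, Epcam by 12.2-fold and Cdh1 by 7.74-fold (adjusted p between 0.00180 and 0.0302). Of 6 fibroblast markers, 6 were well above background on all arrays, with sums of 8709 to 9359 against 7290 to 8457. Of 6 leukocyte markers, 5 were well above background on each miR-23b/27b/24 array and 5 or 6 on the vector arrays (sums 1389 to 1416 against 2409 to 3170), and Cd68 alone of the 5 that were tested was called, 3.21-fold lower. Of 5 endothelial markers, 3 or 4 were well above background on the miR-23b/27b/24 arrays and 3 to 5 on the vector arrays, with sums of 351 to 398 against 375 to 392. The part of these markers in the results was not tested.

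The comparison asked whether heat shock transcripts differ in cells that express the cluster. None of the 9 measured genes passed limma's test at a Benjamini-Hochberg adjusted p under 0.05, against 1924 of all 20510 genes, a background of 9.38%. At an unadjusted p under 0.05 there were 2 of 9 (22.2%), Hspb1 and Dnajb1, against 27.7% of all genes. Over probes the count was 0 of 17, against a background of 9.84%, and 3 of 17 (17.6%) at an unadjusted p under 0.05, against 28.6% of all probes. For 2 of the 9 genes both miR-23b/27b/24 arrays lay on 1 side of both vector arrays, again Hspb1 and Dnajb1, where the background was 59.8%. This was so for 6 of the 17 probes (35.3%), where it was 60.0%. Among the 6 are A_52_P304902 and A_52_P88910, which passed the filter only through the vector arrays, the group where they were higher. These shares lie below the backgrounds, and with 9 genes little can be read from that. The differences are given below with their 95% intervals, because a p that misses the threshold does not show that levels were alike. For 7 of the 9 genes the interval lay within 1 of 0 on the log2 scale, that is within a doubling or halving (Hspb1 and Hsph1 were the exceptions). This was so for 14 of the 17 probes, and the third probe outside it was A_52_P52803, which lists Hspa1a and Hspa1b. Hspa1a counts among the 7 through another probe, A_52_P82741, the highest of its 4 in mean log2 intensity over both channels. That probe is bright mainly in the Cy3 reference, with Cy5 signals of only 87.2 to 94.9. With every local background as measured its difference was -1.15, so its interval sets no firm limit on a change. The 14 probes also include A_51_P117952, A_52_P304902 and A_52_P88910, which were not well above background in Cy5 on every array. In the following, a difference is the mean log2 ratio in miR-23b/27b/24 cells minus that in vector cells, ± SE with 2 arrays per group, and each adjusted p of a heat shock probe is limma's over all probes. Those of the other chaperone genes, further on, are limma's over all genes.

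**Figure D1:**
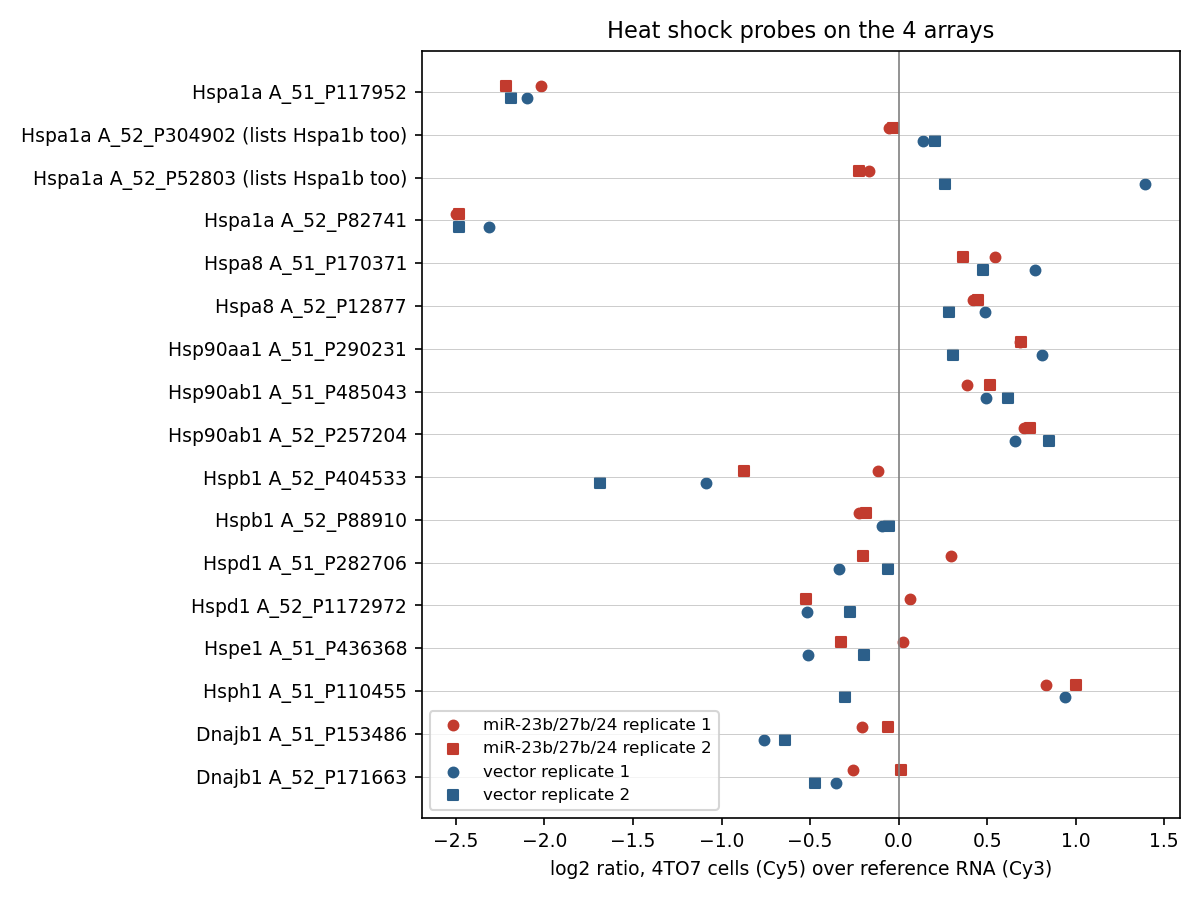
Log2 ratio of 4TO7 cells (Cy5) over reference RNA (Cy3) for each of the 17 heat shock probes, with a point for each array: red for miR-23b/27b/24 and blue for vector, circles for replicate 1 and squares for replicate 2. The widest gaps between the blue points are those of Hsph1 and of the shared Hspa1 probe A_52_P52803, where vector replicate 1 lies 1.24 and 1.13 above vector replicate 2.

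Hspa1a and Hspa1b encode the stress-inducible Hsp70, and the probes gave different accounts of them. The shared probe A_52_P52803 (chr17:33067263-33067322 on mm7, the build of the array files) had log2 ratios of -0.17 and -0.22 in miR-23b/27b/24 cells, against 1.39 and 0.26 in vector cells. Its Cy5 signal was 162 and 158 in miR-23b/27b/24 cells, against 544 and 230 in vector cells, while the Cy3 signal of the reference was 213 and 209 on the miR-23b/27b/24 arrays, against 250 and 217. The groups did not overlap, the miR-23b/27b/24 arrays were close together, and vector replicate 1 stood far above the other arrays.

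The difference of that probe was -1.02 ± 0.38 (95% interval -1.99 to -0.06, limma adjusted p = 0.157). It depended on the vector arrays. Without vector replicate 2 it was -1.59 with an adjusted p of 0.00398, and without vector replicate 1 it was -0.45 with an adjusted p of 0.0777. In these fits the remaining vector array was assumed to vary like the other group. The sign was the same under every alternative, with values from -1.59 to -0.45.

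The other shared probe, A_52_P304902 (chr17:33068671-33068730), was dim. Its log2 ratios were -0.05 and -0.03 in miR-23b/27b/24 cells, against 0.14 and 0.20 in vector cells, with Cy5 signals of 59.0 and 62.7 against 69.9 and 73.3. It was not well above background on either miR-23b/27b/24 array, and it passed the filter through the vector arrays alone, the group where it was higher. The groups did not overlap. The difference was -0.21 ± 0.12 (95% interval -0.52 to 0.10, limma adjusted p = 0.325), and it lay between -0.56 and -0.11 under the alternatives. Since the interval includes 0 and the level in miR-23b/27b/24 cells has only an upper bound, no fold is given.

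The 2 probes that list Hspa1a alone lie next to each other and overlap, at chr17:33066911-33066970 (A_52_P82741) and chr17:33066941-33067000 (A_51_P117952). A_52_P82741 had log2 ratios of -2.50 and -2.48 in miR-23b/27b/24 cells, against -2.31 and -2.48 in vector cells, and its Cy5 signals were 87.2 and 88.6 against 94.9 and 93.8. A_51_P117952 had log2 ratios of -2.02 and -2.22 in miR-23b/27b/24 cells, against -2.10 and -2.19 in vector cells. Both were far below the reference RNA on every array, and the groups overlapped.

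For A_52_P82741 the difference was -0.09 ± 0.13 (95% interval -0.43 to 0.24, limma adjusted p = 0.708). For A_51_P117952, which was not well above background on miR-23b/27b/24 replicate 2, it was 0.03 ± 0.14 (95% interval -0.33 to 0.38, limma adjusted p = 0.930). With every local background as measured, these values were -1.15 and -1.06, also with no call. The shared and the single probes thus gave different ratios to the reference, and the shared ones cannot tell Hspa1a from Hspa1b.

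**Figure D2:**
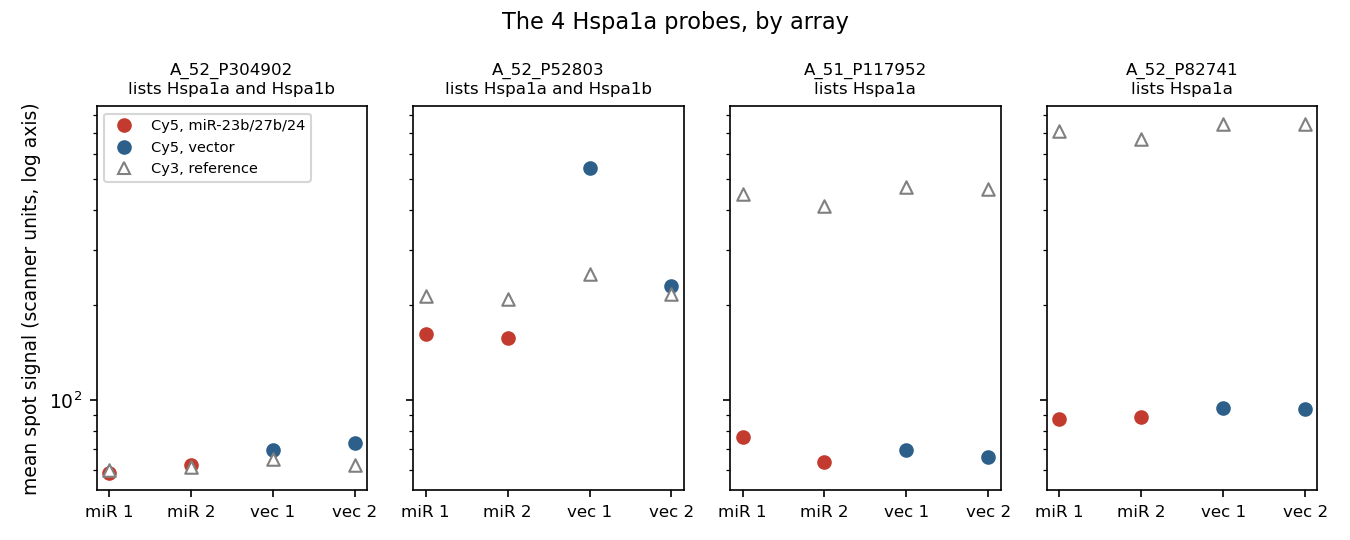
Mean spot signal in scanner units on a log axis, for the 4 Hspa1a probes on each array: filled points are Cy5, red in miR-23b/27b/24 cells and blue in vector cells, and open triangles are the Cy3 reference. The shared probe A_52_P52803 has its highest Cy5 signal on vector replicate 1 (544), and the probes that list Hspa1a alone have Cy5 signals far below Cy3 on all 4 arrays.

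Hspa8 encodes Hsc70, the Hsp70 that cells make without stress, and it was measured by 2 bright probes. A_51_P170371 had log2 ratios of 0.55 and 0.36 in miR-23b/27b/24 cells, against 0.77 and 0.48 in vector cells, and Cy5 signals of 132435 and 132043 against 171197 and 131440. A_52_P12877 had log2 ratios of 0.42 and 0.45 in miR-23b/27b/24 cells, against 0.49 and 0.28 in vector cells. All arrays were above the reference, and the groups overlapped for both probes.

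The differences of Hspa8 were -0.17 ± 0.16 (95% interval -0.59 to 0.24, limma adjusted p = 0.553) and 0.05 ± 0.14 (95% interval -0.30 to 0.40, limma adjusted p = 0.856), with opposite signs. The files place both probes on chromosome 5 of mm7 (chr5:5787852-5787911 and chr5:5788853-5788912), whereas RefSeq has Hspa8 on chromosome 9 of GRCm38.p6. Whether copies of this gene elsewhere in the genome share the signal was not tested.

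Hsph1, listed in the files as Hsp110, encodes the large Hsp105/110 protein that exchanges nucleotide on Hsp70. Its probe A_51_P110455 (chr5:148550005-148550064) had log2 ratios of 0.83 and 1.00 in miR-23b/27b/24 cells, against 0.94 and -0.30 in vector cells. The Cy5 signals were 15233 and 16620 in miR-23b/27b/24 cells, against 20563 and 7059 in vector cells. Here 3 of the 4 arrays were close together, vector replicate 2 was low, and the groups overlapped.

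The difference of Hsph1 was 0.60 ± 0.41 (95% interval -0.46 to 1.65, limma adjusted p = 0.407), and it had no stable size. Without vector replicate 1 it was 1.22 with an adjusted p of 0.00712. Without vector replicate 2 it was -0.02 with an adjusted p of 0.951. Vector replicate 1 exceeded vector replicate 2 by 1.24 in log2 for Hsph1 and by 1.13 for the shared Hspa1 probe. Over the genes, each by its representative probe, 5 of 9 were higher on vector replicate 1, the others being Hspb1 by 0.60, Hsp90aa1 by 0.50, Hspa8 by 0.29 and Hspa1a by 0.17. The remaining 4 were lower on vector replicate 1, with differences of -0.32 for Hspe1, -0.28 for Hspd1 and -0.12 for both Hsp90ab1 and Dnajb1. The median absolute difference between the vector arrays was 0.19 over all genes. Over the 9 heat shock genes, vector replicate 1 minus vector replicate 2 had a median of 0.17, against 0.01 over all genes.

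Dnajb1 encodes Hsp40, the J-domain partner that delivers clients to inducible Hsp70 and stimulates its ATPase. Its probe A_51_P153486 (chr8:82190188-82190247) had log2 ratios of -0.20 and -0.06 in miR-23b/27b/24 cells, against -0.76 and -0.64 in vector cells. The Cy5 signals were 10131 and 11697 in miR-23b/27b/24 cells, against 8575 and 7116 in vector cells. Both miR-23b/27b/24 arrays lay above both vector arrays, and replicates of a group were close.

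The difference of this probe was 0.57 ± 0.13 (95% interval 0.23 to 0.91), a 1.48-fold higher value that missed the threshold (limma adjusted p = 0.0628). It was between 0.50 and 0.64 under the alternatives, with adjusted p between 0.0513 and 0.304. The other Dnajb1 probe, A_52_P171663 (chr8:82188753-82188812), had log2 ratios of -0.25 and 0.01 in miR-23b/27b/24 cells, against -0.35 and -0.47 in vector cells. Its groups did not overlap either, and its difference was smaller, 0.29 ± 0.15 (95% interval -0.09 to 0.68, limma adjusted p = 0.280). The probes of Dnajb1 had the same sign, and neither was called.

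Hspb1 encodes the small heat shock protein Hsp25, which holds unfolded proteins in soluble complexes without using ATP. Its probe A_52_P404533 (chr5:134860337-134860524, a span longer than the 60 bases of the probe) had log2 ratios of -0.12 and -0.87 in miR-23b/27b/24 cells, against -1.09 and -1.69 in vector cells. The Cy5 signals were 2946 and 1772 in miR-23b/27b/24 cells, against 1629 and 901 in vector cells. The groups did not overlap, yet the arrays of each group lay far apart, by 0.76 in miR-23b/27b/24 cells and 0.60 in vector cells, and replicate 1 was the higher in both.

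The difference of Hspb1 was 0.89 ± 0.33 (95% interval 0.06 to 1.73), or 1.86-fold higher, and did not pass the threshold (limma adjusted p = 0.154). It was 1.19 with an adjusted p of 0.0492 without vector replicate 1, and 0.52 with an adjusted p of 0.549 without miR-23b/27b/24 replicate 1. A second probe, A_52_P88910, carries the name Hspb1 in the files but is placed at chr13:44530685-44530744, while Hspb1 lies on chromosome 5. It was dim, with Cy5 signals of 63.0 and 68.2 in miR-23b/27b/24 cells, against 67.8 and 66.3 in vector cells. This probe passed the filter through the vector arrays alone, the group where its log2 ratios were higher. Its difference was -0.13 ± 0.12 (limma adjusted p = 0.543). With the mean of both probes, the value of Hspb1 was 0.38.

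Hsp90aa1 encodes the inducible cytosolic Hsp90, which completes the folding of kinases and hormone receptors. Its probe A_51_P290231 (chr12:108209304-108209363) had log2 ratios of 0.69 and 0.69 in miR-23b/27b/24 cells, against 0.81 and 0.31 in vector cells. The miR-23b/27b/24 arrays lay between the vector arrays. The difference was 0.13 ± 0.20 (95% interval -0.38 to 0.64, limma adjusted p = 0.724), and it was -0.12 without vector replicate 2 and -0.06 with median centring in place of loess, so its direction was not settled.

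Hsp90ab1 encodes the constitutive Hsp90, and its probes were A_51_P485043 (chr17:43697681-43697740) and A_52_P257204 (chr17:43698958-43699017). A_51_P485043 had log2 ratios of 0.39 and 0.52 in miR-23b/27b/24 cells, against 0.50 and 0.62 in vector cells. A_52_P257204 had log2 ratios of 0.71 and 0.74 in miR-23b/27b/24 cells, against 0.66 and 0.85 in vector cells. The groups overlapped for both probes. The differences were -0.10 ± 0.13 (95% interval -0.44 to 0.23, limma adjusted p = 0.664) and -0.03 ± 0.13 (95% interval -0.37 to 0.32, limma adjusted p = 0.916).

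Hspd1 and Hspe1 encode Hsp60 and its lid Hsp10, which form the mitochondrial chaperonin, from the pair of genes whose shared promoter stretch is printed above. Hspd1 probe A_51_P282706 (chr1:55325295-55325354) had log2 ratios of 0.30 and -0.20 in miR-23b/27b/24 cells, against -0.34 and -0.06 in vector cells. Hspd1 probe A_52_P1172972 (chr1:55325929-55325988) had log2 ratios of 0.06 and -0.52 in miR-23b/27b/24 cells, against -0.52 and -0.27 in vector cells. Hspe1 probe A_51_P436368 (chr1:55338388-55338447) had log2 ratios of 0.03 and -0.33 in miR-23b/27b/24 cells, against -0.51 and -0.19 in vector cells.

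The 3 chaperonin probes had the same order of arrays at the top, with miR-23b/27b/24 replicate 1 highest and vector replicate 2 above vector replicate 1, and the groups overlapped. The differences were 0.25 ± 0.21 (95% interval -0.30 to 0.80, limma adjusted p = 0.517) and 0.16 ± 0.23 (95% interval -0.43 to 0.76, limma adjusted p = 0.704) for Hspd1. For Hspe1 the difference was 0.20 ± 0.19 (95% interval -0.29 to 0.69, limma adjusted p = 0.549). Without miR-23b/27b/24 replicate 1 the Hspd1 values were -0.001 and -0.13, and that of Hspe1 was 0.03.

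**Figure D3:**
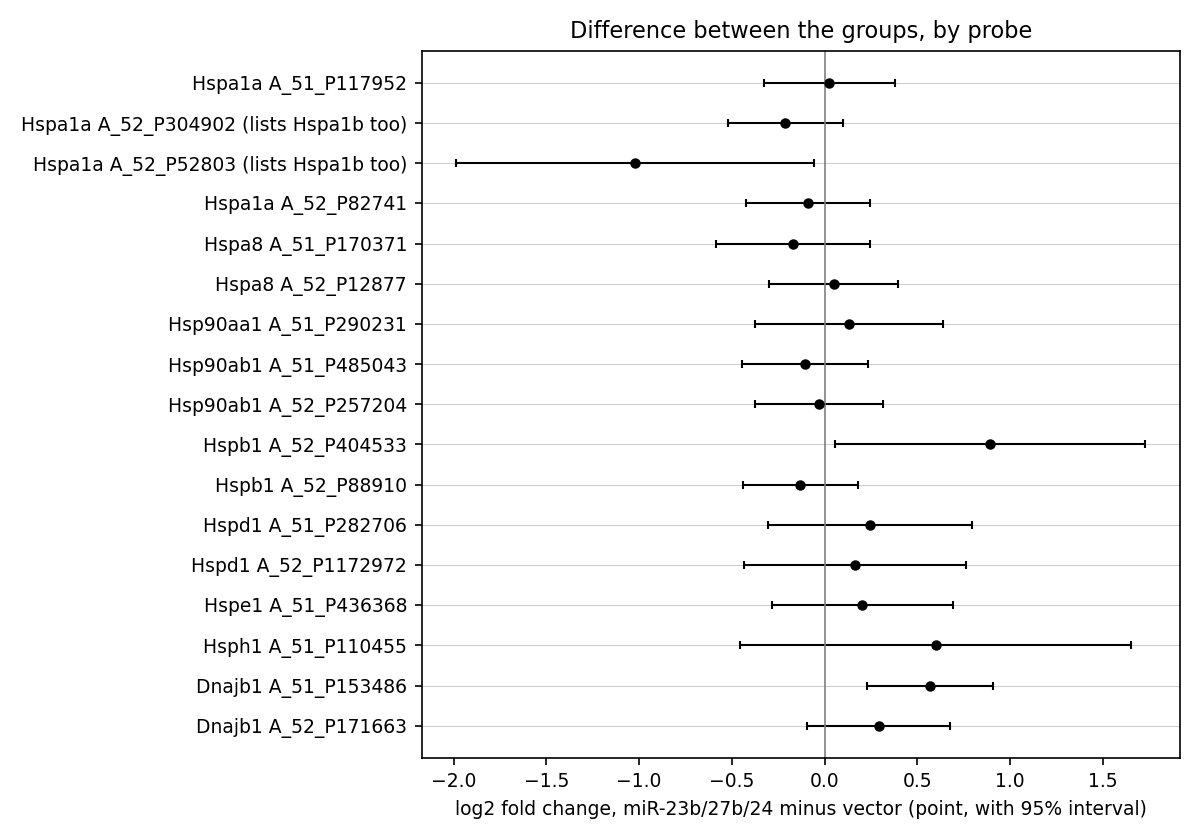
Difference in log2 ratio, miR-23b/27b/24 minus vector, for each heat shock probe, as a point with its 95% interval from limma (2 arrays per group). The intervals of Dnajb1 probe A_51_P153486, Hspb1 probe A_52_P404533 and the shared Hspa1 probe A_52_P52803 leave out 0, and no probe passed the adjusted threshold.

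Over the 9 genes, with 1 probe for each, the highest in mean log2 intensity over both channels, 6 differences were positive and 3 negative. Their median was 0.20, against -0.03 over all genes, of which 45.8% were positive. The positive ones were those of Hspb1, Hsph1, Dnajb1, Hspd1, Hspe1 and Hsp90aa1, and the negative ones those of Hspa8, Hsp90ab1 and Hspa1a. The median was 0.38 without miR-23b/27b/24 replicate 2 and 0.03 without miR-23b/27b/24 replicate 1. It was 0.11 without vector replicate 1 and -0.02 without vector replicate 2. Its size thus rested on single arrays, and its sign changed only where vector replicate 2 was left out.

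**Figure D4:**
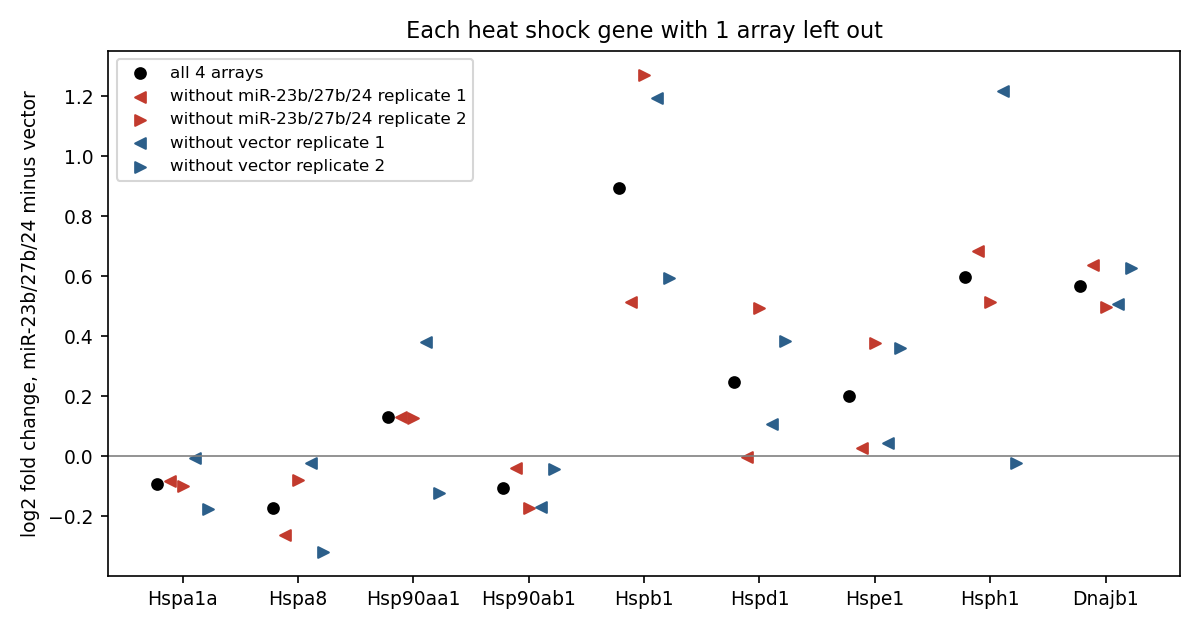
Difference in log2 ratio, miR-23b/27b/24 minus vector, for each of the 9 heat shock genes (probe with the highest mean log2 intensity over both channels) with all 4 arrays (black) and with 1 array left out (triangles, red where a miR-23b/27b/24 array and blue where a vector array is left out). Dnajb1 keeps the narrowest spread among the genes above 0.4, while Hsph1 lies between -0.02 and 1.22.

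The other genes of the chaperone network were counted in 8 lists, with 125 different genes measured. Of these, 17 passed the test, 11 higher and 6 lower in miR-23b/27b/24 cells (backgrounds 4.75% and 4.63%). The endoplasmic reticulum list, which earlier results had shown to be higher, held 7 of the 11 and 1 of the 6. All 17 kept their sign under every alternative. With any 1 array left out, 0 of the 17 differences moved by more than 1.5-fold. With loess on Feature Extraction signals, the Feature Extraction log ratio or the authors' deposited table, 1 of the 17 moved by more than that. The 17 were picked by their calls on these same arrays, which favours a stable sign and size, so this is not independent evidence. The calls held where a vector array was left out, but they were lost where a miR-23b/27b/24 array was left out. Over all genes, too, fewer were called without a miR-23b/27b/24 array than without a vector array. With every local background as measured, 5 of the 17 remained called (at an adjusted p under 0.05 by limma). In that setting 0 of the 9 heat shock genes were called by limma, against a background of 3.09%.

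Of the other 9 Hsp70 and Hsp110 genes, 1 rose, none fell, and the median was -0.11. The gene that rose was Hspa13, an Hsp70-like protein of microsomes, by 0.74 ± 0.12 (limma adjusted p = 0.0318). Among 8 other small heat shock genes, 1 was called higher and 1 lower, and the median was -0.34. Hspb6, known as Hsp20 of muscle, had log2 ratios of 1.01 and 1.13 in miR-23b/27b/24 cells, against -0.20 and -0.39 in vector cells. It rose 2.57-fold (1.36 ± 0.14, limma adjusted p = 0.0107). Its Cy5 signals were low, 277 and 333 in miR-23b/27b/24 cells, against 112 and 99.1 in vector cells. Under the alternatives its difference lay between 1.20 and 1.99, with adjusted p between 0.00533 and 0.0950. Hspb2, a partner of other small heat shock proteins in muscle, had log2 ratios of 0.67 and 0.88 in miR-23b/27b/24 cells, against 2.66 and 2.27 in vector cells, and was 3.22-fold lower (-1.69 ± 0.18, limma adjusted p = 0.0132). These relatives of Hspb1 thus moved in opposite directions.

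Among 33 J-domain genes, 1 was called higher and 3 lower, and the median was 0.00. Dnajc9, which also handles histones, rose by 1.43 ± 0.19 (limma adjusted p = 0.0214). Dnajc28 had a difference of -1.14 ± 0.13 (limma adjusted p = 0.0154). Dnajc21, which acts in ribosome maturation, had a difference of -1.12 ± 0.21 (limma adjusted p = 0.0426), and Dnajc1, a J-domain protein of the endoplasmic reticulum membrane, one of -0.74 ± 0.13 (limma adjusted p = 0.0371). Dnajb1 itself was not among the called J-domain genes.

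Of 25 co-chaperone genes, 1 rose, none fell, and the median was 0.13. The gene was Ppp5c, a phosphatase that binds Hsp90, by 1.02 ± 0.12 (limma adjusted p = 0.0160). Of 15 genes of the cytosolic chaperonin and prefoldin, 1 fell, the chaperonin subunit Cct2 (-0.67 ± 0.12, limma adjusted p = 0.0368), and the median was 0.04. None of 16 mitochondrial protein quality genes passed, with a median of -0.26. The smallest p values there were those of Hscb, a co-chaperone of iron-sulphur cluster assembly (-0.80 ± 0.16, limma adjusted p = 0.0501), and of the protease Htra2 (-0.60 ± 0.13, limma adjusted p = 0.0575). Of the 4 measured genes of heat shock factors and their binding partners none passed, with a median of -0.15. The smallest p values were those of Hsf2bp (-0.47 ± 0.37, limma adjusted p = 0.483) and Hsbp1, which binds heat shock factor 1 (-0.18 ± 0.16, limma adjusted p = 0.531).

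The chaperones of the endoplasmic reticulum had more called genes than any other of these lists. Of 18 genes, 7 rose and 1 fell, 15 differences were positive, and the median was 0.99. Among the 8 called genes, the 4 with the largest change were the disulfide isomerase Pdia6 (1.88 ± 0.21, limma adjusted p = 0.0134), the lectin chaperone Calr (1.59 ± 0.20, limma adjusted p = 0.0179), the Hsp70 co-chaperone Dnajc3 (1.42 ± 0.25, limma adjusted p = 0.0380) and the disulfide isomerase P4hb (1.32 ± 0.22, limma adjusted p = 0.0329). The gene that fell, Dnajb9, a J-domain protein of this compartment, was named after its value was seen (-1.01 ± 0.18, limma adjusted p = 0.0377). Earlier results had shown this list to be higher, so its count is not independent evidence, and the difference between this list and the heat shock genes was not tested.

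The vector arrays also ordered these lists differently. Vector replicate 1 minus vector replicate 2 had a median of -0.39 over the 18 endoplasmic reticulum genes and of 0.17 over the 9 heat shock genes. Leaving out vector replicate 1 gave a median difference of 0.72 over the endoplasmic reticulum genes, and leaving out vector replicate 2 gave 1.34. For the heat shock genes the same fits gave medians of 0.11 and -0.02.

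**Figure D5:**
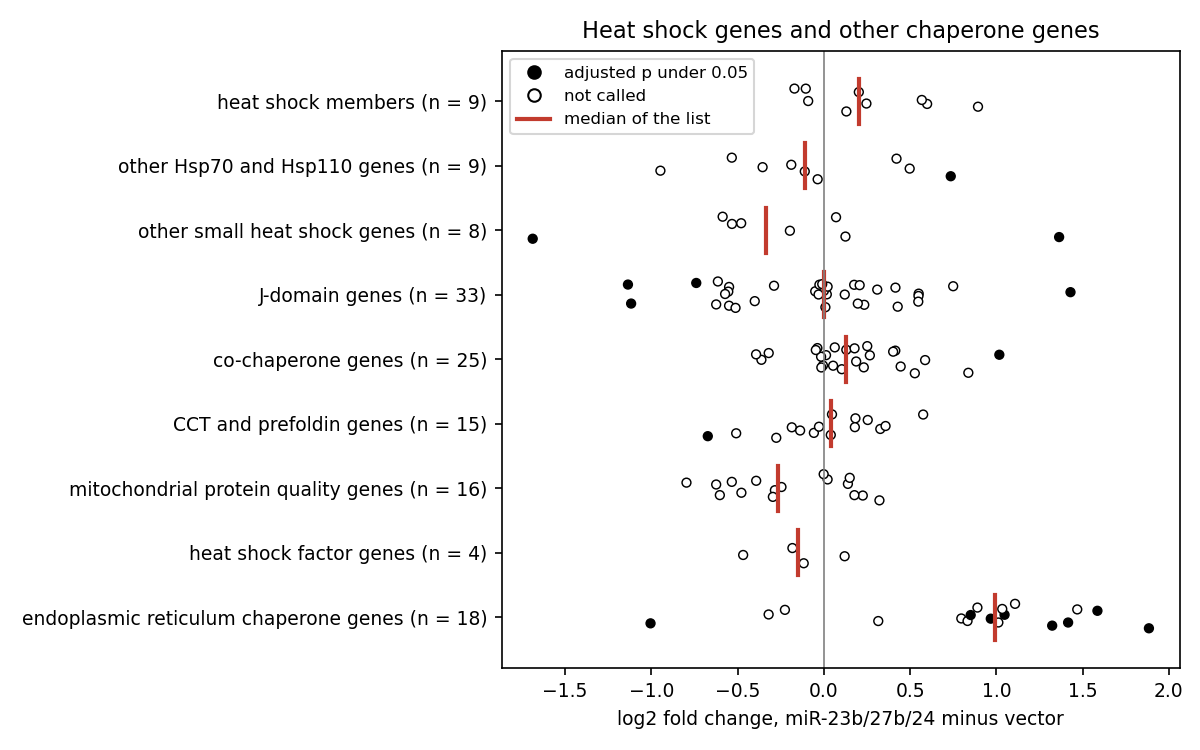
Difference in log2 ratio, miR-23b/27b/24 minus vector, for each measured gene of the heat shock group and of the 8 other chaperone lists (1 list per row, shifted up or down within a row only to separate points). Filled points passed limma's adjusted p under 0.05 and red lines are list medians: 0.20 for the 9 heat shock genes, none filled, and 0.99 for the 18 endoplasmic reticulum genes, 8 of them filled.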

How the data were processed

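RNA of 4TO7 cells (Cy5) was hybridised against reference RNA (Cy3) without dye swaps, per the labels' protocols. All 4 arrays lay on 1 slide, read in 1 scan. The deposited spot and local background intensity values, the processed intensities and a log10 ratio of Cy5 over Cy3 came from Agilent Feature Extraction 9.5.3.1, with probe positions on mm7, per the file headers. The authors' deposited value table holds log2 ratios whose median over the 4 arrays is 0 for each probe.

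In R 4.3.3 with limma 3.58.1, normexp (offset 50) and loess within arrays, with weight 0 for controls, were applied to mean signals. Before that, the array's median stood in for local backgrounds marked as outliers, a choice taken over from earlier processing that had seen results. Outlier and control spots were left out. A probe was kept where both arrays of a group had it well above background in Cy5, and each gene's probe of highest mean log2 intensity over both channels stood for it. The fits (lmFit, eBayes) ran on all genes and on all probes, with 2 residual and, for genes, 2.82 prior degrees of freedom. Probes were named by accession (22951), symbol (6659) or synonym (3109) in RefSeq, and 8455 kept the files' name. Members and lists were chosen with earlier results of these data known. Every member probe was named, and from each list up to 4 called genes of largest change, or the 2 of smallest p. The fit was tested on simulated data. The number of arrays limits precision. Alternatives covered background, scaling, filter, probe choice, moderation, a replicate block and each array left out.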

Additional observations from a re-analysis of the deposited data

How the results depend on the processing

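The 16 settings tried besides the one reported left Dnajb1, Hspe1 and Hspb1 positive and Hsp90ab1, Hspa1a (A_52_P82741) and the shared Hspa1 probe A_52_P52803 negative, while Hspa8, Hsp90aa1, Hspd1 and Hsph1 changed sign under at least 1 setting, with no call at the other sign. The count of called heat shock genes, 0, became 1 with a replicate block (Hspb1, adjusted p = 0.0410) and was 0 to 1 with 1 array left out. For heat shock probes it was 1 with the block and 0 to 2 with 1 array left out. Over all genes the count of 1924 became 1263 with median centring and 634 when local backgrounds were all used as measured; with 1 array left out it was 212 to 4582, lowest without miR-23b/27b/24 replicate 1 and highest without vector replicate 1. Over all probes the count of 2961 became 880 in the same background setting, and 251 to 6821 with 1 array left out. The 17 listed chaperone genes called became 6 in that setting, 11 with loess on Feature Extraction signals, 11 with the Feature Extraction log ratio, 11 with the authors' deposited table, and 0 to 36 with 1 array left out. The cause of these shifts was not tested. Same-numbered arrays deviated from their group means with a correlation of 0.05 across genes, so the numbers do not show a pairing; the block gave 1738 genes, 3261 probes and 13 listed chaperone genes. Slide and scan as a block could not be fitted, since all arrays share them. Probe values had no setting with the mean of a gene's probes. The 2 Hspa1a probes that were not well above background on every array set no firm limit on a change.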
